A study of Oryza sativa with 12 samples.

Results

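Rice carries 4 MADS-box genes of the APETALA1/FRUITFULL (AP1/FUL) type, OsMADS14, OsMADS15, OsMADS18 and OsMADS20, whose transcript levels in young panicles of the osmads1 mutant and of wild type are described here. They were found on the array by symbol or synonym, which gave 10 probe sets among the 57194 tested, and 4 genes among the 17905 with an assigned probe set. OsMADS14 and OsMADS15 have 4 probe sets each, told apart by their Affymetrix suffix, and OsMADS18 and OsMADS20 have 1 each. A probe set ending in _at has probes that match 1 transcript, in _a_at probes shared by transcripts of 1 gene, in _s_at probes shared by several transcripts, and in _x_at some probes that match other sequences. OsMADS14 lies on chromosome 3, OsMADS15 and OsMADS18 on chromosome 7, and OsMADS20 on chromosome 12.

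AP1/FUL-type genes encode MADS-box transcription factors that act downstream of florigen at the shoot apex. In rice OsMADS14, OsMADS15 and OsMADS18 are switched on when the shoot meristem becomes an inflorescence meristem, and together with the SEPALLATA-type gene OsMADS34 they set inflorescence meristem identity. OsMADS14 and OsMADS15 also act in the specification of palea and lodicules in the spikelet, and their proteins pair with SEPALLATA-type partners such as OsMADS1. OsMADS18 promotes flowering when overexpressed, and OsMADS20 is the least studied of the family.

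The 4 groups were osmads1 panicles 2 mm long, wild-type panicles 2 mm long, osmads1 panicles 5-7 mm long and wild-type panicles 5-7 mm long, with 3 biological replicates each and 12 Affymetrix arrays in all. All plants grew in a paddy field with no treatment. The labels call the shorter panicles an early stage of flower development, at which inner floral organs start to form, and the stated aim was to find the functions of OsMADS1 at an earlier and a later stage. The kind of lesion in osmads1, the rice strain and the number of plants in a panicle sample are not given in the sources used here. The number of arrays limits the precision.

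The array values were log2 levels, a difference is osmads1 minus wild type in log2 units with its standard error, and a probe set was called when its limma p, adjusted by Benjamini-Hochberg over all 57194, was under 0.05. The OsMADS1 transcript checked the labels: it averaged 4.86 ± 0.52 in osmads1 against 10.80 ± 0.20 in wild type at 2 mm, and 4.10 ± 0.76 in osmads1 against 11.53 ± 0.07 in wild type at 5-7 mm (SD, n = 3 each). Array medians lay between 4.10 and 4.13 at 2 mm and between 4.93 and 5.00 at 5-7 mm, so levels of different lengths are not on one scale. Panicles are mixed tissue, and a change in the number of cells that express a gene cannot be told apart from a change in RNA per cell. The mean of 5 measured meristem and young panicle markers (RFL, LAX1, FZP, LOG and OSH1) ran from 8.05 to 8.34 in osmads1 and from 8.42 to 8.46 in wild type at 2 mm, and from 8.67 to 8.96 in osmads1 and from 7.88 to 8.11 in wild type at 5-7 mm. The mean of 6 floral organ markers was lower in every osmads1 array than in every wild-type array at both lengths. Of the 6, DL and OsMADS3 overlapped between genotypes at 2 mm and were not called there. DL was not called at 5-7 mm either.

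At 5-7 mm OsMADS15 was higher in osmads1, by 0.33 to 0.44 log2 units over its 4 probe sets, and it was the AP1/FUL-type gene whose genotype difference passed the test. OsMADS14 showed positive differences of 0.08 to 0.37, the largest with a standard error of 0.21. OsMADS18 and OsMADS20 showed negative differences, and none of the differences of these genes was called. At 2 mm limma called 0 of the 10 probe sets, 2 had an unadjusted p under 0.05 (OsMADS14 _a_at and OsMADS18), and a limma fit with an intensity-trended robust prior called OsMADS18. Of the 6 not called at 5-7 mm, OsMADS20 had an unadjusted p under 0.05. Of all probe sets, 11.8% were called at 2 mm and 21.5% at 5-7 mm (5.5% and 10.2% higher, 6.28% and 11.3% lower). The 4 called of 10 at 5-7 mm thus have to be read against a common outcome. These 4 are annotated to the same gene and are not independent. The median difference of the 10 probe sets was 0.10 at 2 mm and 0.24 at 5-7 mm, while over all probe sets it was -0.01 at both lengths. Of the 10, 8 belong to OsMADS14 and OsMADS15, and with 1 probe set for each gene the medians were 0.10 and 0.01.

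**Figure D1:**
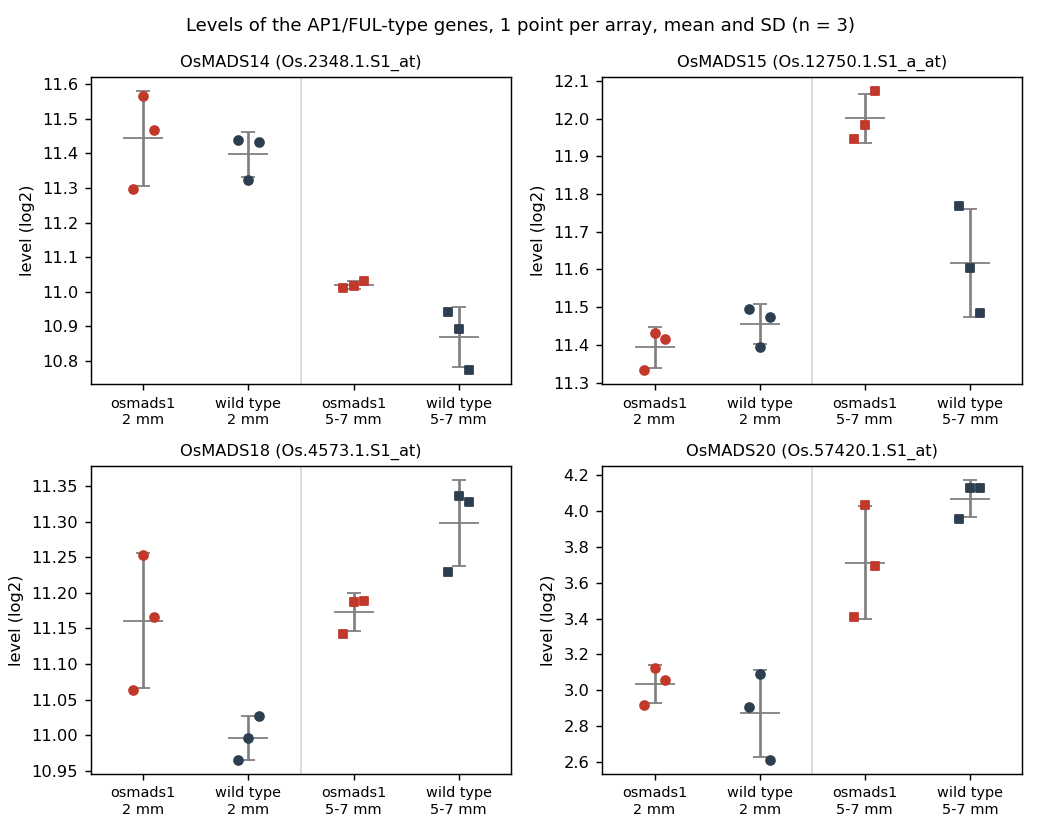
Log2 level of the OsMADS14 bright _at, OsMADS15 _a_at, OsMADS18 _at and OsMADS20 _at probe sets on each of the 12 arrays, in osmads1 (red) and wild type (dark), circles at 2 mm and squares at 5-7 mm, with group means and SD bars (n = 3). At 5-7 mm the osmads1 points of OsMADS15 (11.95 to 12.07) lie above all wild-type points (11.48 to 11.77), while OsMADS18 is higher in osmads1 at 2 mm and lower at 5-7 mm. The vertical axes differ between panels and do not start at 0, and levels at different lengths are not on one scale.

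OsMADS15 is a close relative of OsMADS14 and is known for its role in the palea and lodicules. Its _a_at probe set read 11.33, 11.43 and 11.41 in osmads1 and 11.50, 11.39 and 11.47 in wild type at 2 mm. At 5-7 mm it read 11.95, 11.98 and 12.07 in osmads1 and 11.77, 11.60 and 11.48 in wild type. The groups overlap at 2 mm and stand apart at 5-7 mm, where the lowest osmads1 array is above the highest wild-type array. The difference was -0.06 ± 0.08 at 2 mm (limma adjusted p = 0.760). At 5-7 mm it was 0.38 ± 0.08, a 1.30-fold higher level with a 95% interval of 1.15 to 1.47 (limma adjusted p = 0.00415). No removal of a single array ended that call, with adjusted p between 0.00174 and 0.0212.

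The _x_at probe set of OsMADS15, built on the same sequence record as _a_at, gave 11.41, 11.58 and 11.50 in osmads1 and 11.59, 11.49 and 11.56 in wild type at 2 mm, with overlapping groups. At 5-7 mm its levels were 11.78, 11.80 and 11.87 in osmads1 and 11.51, 11.42 and 11.41 in wild type. Both groups were tight at the longer length and did not overlap. The difference there was 0.37 ± 0.07, 1.29-fold (95% interval 1.16 to 1.43, limma adjusted p = 0.00204).

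The _s_at probe set of OsMADS15 gave 9.65, 9.88 and 9.73 in osmads1 and 9.66, 9.47 and 9.57 in wild type at 2 mm. Its values at 5-7 mm were 10.52, 10.35 and 10.45 in osmads1 and 10.24, 10.12 and 9.96 in wild type. It is the OsMADS15 probe set with a positive difference at both lengths, 0.19 ± 0.09 at 2 mm (limma adjusted p = 0.260) and 0.33 ± 0.09 at 5-7 mm (limma adjusted p = 0.0214). The call at 5-7 mm rested on single arrays: it was lost without osmads1 replicate 1 or 3 or without wild-type replicate 2 or 3, with adjusted p of 0.0764, 0.0510, 0.0526 and 0.0937.

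The plain _at probe set of OsMADS15 was dim. At 2 mm its readings were 4.17, 4.39 and 4.38 in osmads1 and 4.40, 4.40 and 4.28 in wild type, a level that 3 and 2 of the 64 reporter controls, which match no rice transcript, exceeded on average. At 5-7 mm it read 6.59, 6.60 and 6.58 in osmads1 and 6.19, 6.32 and 5.93 in wild type, and no reporter control was above it. The osmads1 arrays lay close together and above all wild-type arrays, and the difference was 0.44 ± 0.10, 1.36-fold (95% interval 1.17 to 1.58, limma adjusted p = 0.00564).

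**Figure D2:**
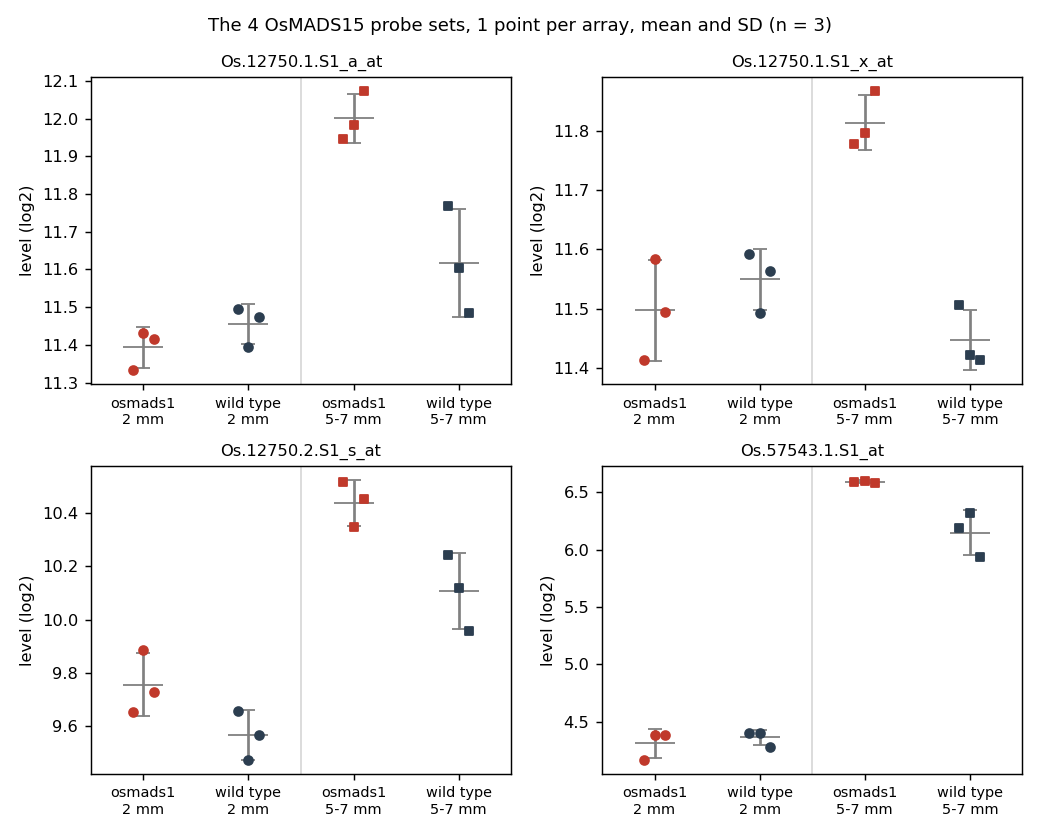
Log2 level of each of the 4 OsMADS15 probe sets on the 12 arrays, osmads1 in red and wild type dark, with group means and SD bars (n = 3). In all 4 panels the osmads1 points at 5-7 mm lie above the wild-type points at that length, and at 2 mm the groups overlap.

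The interaction term asks whether the genotype difference at 5-7 mm departs from that at 2 mm. It was called for 3 of the 4 OsMADS15 probe sets, where 22.3% of all probe sets were called (11.3% in the positive direction). The _a_at probe set gave 0.44 ± 0.11 (limma adjusted p = 0.0132) and _x_at gave 0.42 ± 0.10 (limma adjusted p = 0.00789), and both calls held without any single array. The _at probe set gave 0.49 ± 0.14 (limma adjusted p = 0.0218), a call lost without osmads1 replicate 1, wild-type replicate 1 or wild-type replicate 2 of the 2 mm panicles (adjusted p 0.0539, 0.0515 and 0.0517). For _s_at it was 0.14 ± 0.13 (95% interval -0.14 to 0.43) and was not called.

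OsMADS14 acts with OsMADS15 in inflorescence meristem identity and in the spikelet. Its bright _at probe set gave 11.30, 11.57 and 11.47 in osmads1 and 11.44, 11.32 and 11.43 in wild type at 2 mm. At 5-7 mm the readings were 11.01, 11.02 and 11.03 in osmads1 and 10.94, 10.89 and 10.77 in wild type. The 2 mm groups overlap, and at 5-7 mm every osmads1 array is slightly above every wild-type array, as it is for 16.7% of all probe sets. The differences, 0.05 ± 0.08 at 2 mm and 0.15 ± 0.08 at 5-7 mm (95% interval -0.02 to 0.33), were not called (limma adjusted p = 0.832 and 0.225).

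The other OsMADS14 probe sets gave no call either, and they did not move alike. The _a_at probe set differed by 0.36 ± 0.15 at 2 mm (limma adjusted p = 0.177) and by 0.13 ± 0.15 at 5-7 mm. The _x_at probe set differed by 0.18 ± 0.09 at 2 mm and by 0.08 ± 0.09 at 5-7 mm. The dimmer of its _at probe sets had a negative difference at 2 mm, -0.36 ± 0.21, and a positive one at 5-7 mm, 0.37 ± 0.21.

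That dimmer _at probe set was also the OsMADS14 probe set with the widest spread. It read 9.04, 9.25 and 9.26 in osmads1 and 9.37, 8.66 and 8.42 in wild type at 5-7 mm. Wild-type replicate 1 stands above all osmads1 arrays there, and the other wild-type arrays stand below them. Without that array the difference was 0.64 (limma adjusted p = 0.0174) and the interaction 1.01 (limma adjusted p = 0.00616). With all arrays the interaction was 0.73 ± 0.30 and was not called (limma adjusted p = 0.101), and without wild-type replicate 3 of the 2 mm panicles it was 0.90 (limma adjusted p = 0.0470).

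OsMADS18, which is expressed widely in the rice plant, had small differences of opposite sign. Its _at probe set gave 11.06, 11.25 and 11.17 in osmads1 and 10.97, 11.00 and 11.03 in wild type at 2 mm. At 5-7 mm it gave 11.14, 11.19 and 11.19 in osmads1 and 11.23, 11.34 and 11.33 in wild type. The groups do not overlap at either length, with osmads1 above wild type at 2 mm and below it at 5-7 mm. Of all probe sets, 29% at 2 mm (12.9% with osmads1 above) and 35% at 5-7 mm had groups that do not overlap. Neither difference was called: 0.17 ± 0.07 at 2 mm (limma adjusted p = 0.178) and -0.13 ± 0.07 at 5-7 mm (limma adjusted p = 0.245). Their change between lengths, -0.29 ± 0.10 (95% interval -0.51 to -0.08), missed the threshold at a limma adjusted p of 0.0529. It passed without osmads1 replicate 1 of the 2 mm panicles (-0.34, adjusted p 0.0299) and without wild-type replicate 1 of the 5-7 mm panicles (-0.32, adjusted p 0.0466), and the 2 mm difference passed with a variance prior that follows intensity (adjusted p 0.0206).

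OsMADS20 was near the background of the array. Its _at probe set gave 2.92, 3.12 and 3.06 in osmads1 and 2.91, 3.09 and 2.61 in wild type at 2 mm, and 20 and 26 of the 64 reporter controls had a higher mean. At 5-7 mm the readings were 3.41, 4.04 and 3.69 in osmads1 and 3.95, 4.13 and 4.13 in wild type, with 19 and 14 reporter controls above. All groups lie in the range of the controls, and the genotypes overlap at both lengths. The differences were 0.16 ± 0.15 at 2 mm and -0.36 ± 0.15 at 5-7 mm (limma adjusted p = 0.617 and 0.111).

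A single array carried much of the OsMADS20 spread at 5-7 mm. Osmads1 replicate 2, the highest of its group at 4.04, overlaps wild type, and without it the difference was -0.52 (limma adjusted p = 0.0193) and the interaction -0.68 (limma adjusted p = 0.0194). That array also had the highest 3' to 5' difference of the bright GAPDH control, 2.74 against 1.97 and 2.01 in the other osmads1 arrays at 5-7 mm. Its part in the result was not tested.

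**Figure D3:**
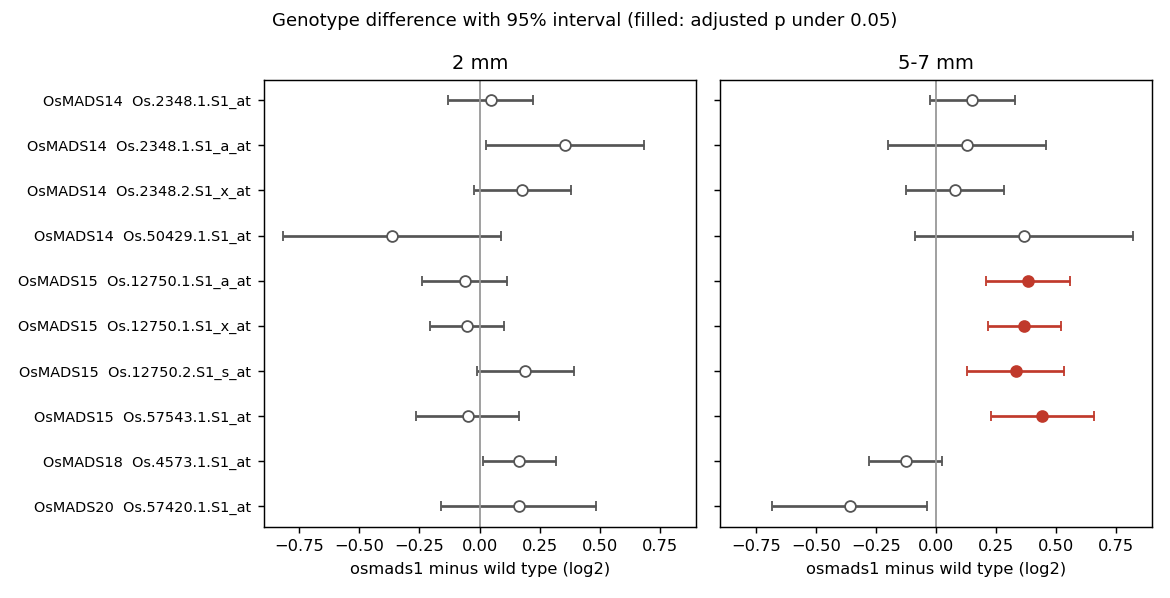
Difference of osmads1 minus wild type (log2, horizontal axis) for the 10 AP1/FUL-type probe sets at 2 mm (left) and 5-7 mm (right), with 95% intervals from limma, filled where the adjusted p was under 0.05. The 4 OsMADS15 probe sets are filled at 5-7 mm, from 0.33 to 0.44, and no probe set is filled at 2 mm.

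Probe set signal from the 3' labelling used here depends on RNA integrity, so the 3' to 5' differences of 6 control pairs were set beside these results. At 2 mm they were lower in every osmads1 array than in every wild-type array for 4 of the 6 pairs and higher for none. At 5-7 mm, where OsMADS15 was called, the genotypes overlapped for all 6 pairs. In each of the 6 pairs osmads1 replicate 2 had the highest 3' to 5' difference of the arrays at that length. Its part in the OsMADS15 differences was not tested. The mean of the 5 meristem and young panicle markers was higher in all osmads1 arrays at 5-7 mm, where LAX1, RFL, FZP and OSH1 rose and LOG fell (-1.01, limma adjusted p = 0.000136). At 2 mm that mean was lower in all osmads1 arrays, with 1 marker called, OSH1 (-0.35, limma adjusted p = 0.0111), while RFL and LOG differed by -0.03 and -0.06. The mean of 5 leaf markers ran from 6.26 to 6.75 in osmads1 and from 5.65 to 5.92 in wild type at 2 mm. At 5-7 mm it ran from 6.62 to 7.00 in osmads1 and from 6.23 to 6.48 in wild type. Of the 5 leaf markers 1, CAB2R, was called at 5-7 mm (2.50, limma adjusted p = 0.000625), and the median difference over the 5 was 0.02. At 2 mm PORA and PSAG rose, by 1.71 and 1.35 (limma adjusted p = 4.65e-05 and 9.71e-07). The mean of 5 anther and tapetum markers ran from 5.90 to 6.09 in osmads1 and from 4.84 to 4.92 in wild type at 2 mm, where OsC6, RAFTIN1 and CYP703A3 rose and MSP1 fell. At 5-7 mm that mean overlapped between genotypes, and MSP1 alone was called (0.25, limma adjusted p = 0.0267, kept in 2 of 6 removals of an array). The part of these markers in the differences and interactions of the AP1/FUL-type genes was not tested.

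A call for OsMADS15 and none for another gene does not show that these genes differ, so the genotype effects were compared pair by pair, with exact permutation tests of the genotype labels, two-sided, over the 6 pairs of the 4 genes. At 5-7 mm the effect of OsMADS15 exceeded that of OsMADS14 by 0.23 and that of OsMADS18 by 0.51. For each of these the within-array differences of all osmads1 arrays lay above those of all wild-type arrays, and the exact p was 0.1, the smallest that 20 relabellings can give (adjusted p = 0.15). At 2 mm the same differences had the opposite sign, -0.11 and -0.23, each with an exact permutation p of 0.1 (adjusted 0.2). OsMADS14 minus OsMADS18 was -0.12 at 2 mm and 0.28 at 5-7 mm, with an exact permutation p of 0.1 at each. Averaged over both lengths, which sets these opposite signs against each other, no pair passed the test, with adjusted exact permutation p of 0.345 throughout.

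The change of each pair's difference between the lengths was set against relabellings as well, a step added after the values were seen. Genotype labels were shuffled within each length. The hypothesis tested is therefore no genotype effect on the pair's difference at either length, not an equal effect at both. A low p does not by itself show a change between lengths. The OsMADS15 effect rose over that of OsMADS14 by 0.34 and over that of OsMADS18 by 0.73 from 2 mm to 5-7 mm. The exact permutation p was 0.005 for both, the smallest that 400 relabellings can give (adjusted 0.01). OsMADS14 against OsMADS18 gave 0.40 (adjusted exact permutation p = 0.01). The 3 pairs with OsMADS20 are counted in the adjustment, but their values are not read as differences between genes, because the OsMADS20 probe set lay in the range of the reporter controls.

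The probe sets of a gene were also compared by how they ran together over the 12 arrays, after the mean of each length had been taken off. Such correlations are descriptions, and the points share genotype and array. The OsMADS15 probe sets had Pearson r between 0.73 and 0.96 among themselves. Among the OsMADS14 probe sets r ran from 0.18 to 0.93, and the dimmer _at was the one that stood apart, at 0.18 to 0.31 with the rest. The _s_at probe set of OsMADS15 ran closer to the bright _at probe set of OsMADS14 (r = 0.87) than to any OsMADS15 probe set (0.73 to 0.77). Between genes, OsMADS15 and OsMADS14 had r = 0.77, OsMADS15 and OsMADS18 r = -0.55, OsMADS15 and OsMADS20 r = -0.59, and OsMADS18 and OsMADS20 r = 0.62, each with the probe sets of the plot by gene (bright _at for OsMADS14, _a_at for OsMADS15).

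Over 2457 other genes with an informative name, those most like each member were found by the same measure. For OsMADS14 they were OsMADS34 (r = 0.87), the actin gene AC3 (r = 0.86) and OsSK2 (r = 0.86), whose order changed with the measure: Spearman's rho was 0.88, 0.89 and 0.87, and r after quantile normalization 0.84, 0.84 and 0.88. OsMADS15 was followed by BSL1 (r = 0.95), by the auxin-response gene on chromosome 3 listed as IAA1 and IAA13 (r = 0.94) and by OsCASPL2D1 (r = 0.94). The IAA1/IAA13 probe set differed by -0.14 at 2 mm and by 0.86 at 5-7 mm. Genotype differences were not taken off before the ranking. Genes found by it, here and for the other members, therefore tend to share a member's sign pattern by selection.

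For OsMADS18 the closest were LEA19 (r = 0.92), a late embryogenesis abundant gene, GF14b (r = 0.92), which encodes a 14-3-3 protein, and the dehydrin gene RAB21 (r = 0.92). RAB21 differed by 2.69 at 2 mm and by -2.19 at 5-7 mm, and GF14b by 0.33 and -0.39, against 0.17 and -0.13 for OsMADS18. For OsMADS20 they were ML4 (r = 0.91), OsC3H8 (r = 0.82) and SAUR39 (r = 0.81), the last as dim as OsMADS20, with r of 0.76, 0.76 and 0.82 after quantile normalization. The OsMADS20 signal lay in the range of the reporter controls, so its likenesses are those of a near-background probe set.

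**Figure D4:**
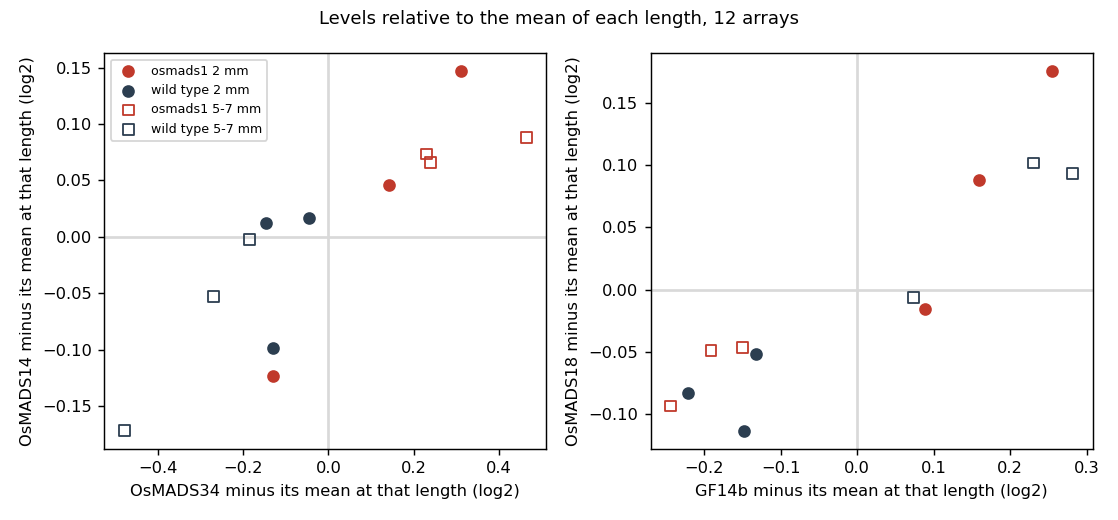
Level on each array minus the mean of its length (log2), OsMADS14 against OsMADS34 (left) and OsMADS18 against GF14b (right), osmads1 in red and wild type dark, filled circles at 2 mm and open squares at 5-7 mm. OsMADS14 and OsMADS34 correlate at r = 0.85 within the 6 arrays at 2 mm and 0.94 within the 6 at 5-7 mm, and OsMADS18 and GF14b at 0.93 and 0.97.

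OsMADS34, 1 of the 3 named genes most like OsMADS14, is also its neighbour on chromosome 3 in the reference gene table. It read 9.69, 9.68 and 9.92 in osmads1 and 9.27, 9.18 and 8.97 in wild type at 5-7 mm, without overlap, and rose by 0.62 ± 0.11 (limma adjusted p = 0.00151). That is above the 0.15 of OsMADS14 at the same length, and the difference between these genes was not tested. Of the 8 genes flanking the members, 7 had a probe set, of which 1 rose at 2 mm, while 3 rose and 1 fell at 5-7 mm, where 21.5% of all probe sets were called.

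Levels at the 2 lengths can be compared only under an assumption on scale, because 79.6% of all probe sets in osmads1 and 79.9% in wild type were called between lengths in the deposited values. Upward calls made up 74.1% and 73.7% of all probe sets, and downward calls 5.46% and 6.26%. Scale was not all that differed. Every control pair had a lower mean 3' to 5' difference in the longer panicles, whichever the genotype. Wild-type means for actin 1 were 6.12 at 2 mm and 4.31 at 5-7 mm, and for actin 2 they were 5.11 and 2.98. The osmads1 means were 5.99 and 4.34 for actin 1, and 4.59 and 3.18 for actin 2. The part of this in the changes between lengths given below was not tested. The OsMADS14 probe sets did not run the same way. The bright _at was lower at 5-7 mm than at 2 mm, with a difference of -0.42 ± 0.08 in osmads1 and of -0.53 ± 0.08 in wild type (limma adjusted p = 0.000317 and 4.59e-05), and it stayed lower after quantile normalization of all arrays or centring on array medians, at -1.28 to -1.0 in osmads1 and -1.40 to -1.06 in wild type. The _x_at of OsMADS14 was called higher, by 0.25 ± 0.09 in osmads1 and 0.35 ± 0.09 in wild type (limma adjusted p = 0.0264 and 0.00393), with the osmads1 call lost without replicate 1 or 3 of its 2 mm panicles or replicate 3 of its 5-7 mm panicles. The dimmer _at was called higher in osmads1, by 0.74 ± 0.21 (limma adjusted p = 0.00531). After quantile normalization _x_at stood at -0.37 in osmads1 and -0.28 in wild type, and the dimmer _at at 0.10 in osmads1, so no direction is given for the gene. The dim _at probe set of OsMADS15, singled out after its values were seen, was higher at 5-7 mm by 2.28 ± 0.10 in osmads1 and by 1.79 ± 0.10 in wild type, and by 1.42 to 1.5 in osmads1 and 0.92 to 0.97 in wild type under those scalings. For OsMADS15 (_a_at), OsMADS18 and OsMADS20 the sign or the call between lengths turned with the scaling, so no direction is given.

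The wider flowering network was read from lists of related genes. Among the 7 MADS-box genes that encode likely partners of the AP1/FUL-type proteins (SEPALLATA and AGL6 types, OsMADS1 included), 5 fell and none rose at 2 mm, and 5 fell and 1, OsMADS34, rose at 5-7 mm. Their median difference was -1.98 and -1.25. The 7 other floral organ MADS-box genes had 4 lower at 2 mm and 6 lower at 5-7 mm, with none higher, and medians of -0.46 and -1.33. The AP1/FUL-type genes, with 1 probe set each, had medians of 0.10 and 0.01 with 0 of 4 called lower by limma, where 6.28% and 11.3% of all probe sets were.

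Of 5 SVP and SOC1 type genes, which act in flowering time and in the change from inflorescence to floral meristem, 1 rose at 2 mm, and at 5-7 mm 1 rose and 1 fell. Among all probe sets, 11.8% were called at 2 mm and 21.5% at 5-7 mm. At 5-7 mm OsMADS50 was higher by 0.72 ± 0.08 and OsMADS22 lower, at -0.87 ± 0.16 (limma adjusted p = 1.90e-05 and 0.00178). The OsMADS50 call at 2 mm, 0.30 (limma adjusted p = 0.0198), was kept in 1 of 6 removals of an array. The list medians were 0.21 at 2 mm and -0.05 at 5-7 mm.

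The florigen pathway is upstream of the AP1/FUL-type genes, and 4 of its 12 listed genes were measured. Hd3a, the rice florigen gene, averaged 3.08 in osmads1 against 3.21 in wild type at 2 mm, and 3.45 in osmads1 against 3.66 in wild type at 5-7 mm, without a call. GF14b, whose product binds florigen, was higher in osmads1 at 2 mm (0.33, limma adjusted p = 0.0112, lost without wild-type replicate 2 at 0.0541) and lower at 5-7 mm (-0.39, limma adjusted p = 0.00237). GF14c was called lower at 2 mm (-0.24, limma adjusted p = 0.0363), a call kept in 1 of 6 removals of an array, and the list medians were -0.10 and -0.12.

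Of 20 listed flowering time regulators 10 were measured, and 2 rose at 2 mm, while 4 rose and 1 fell at 5-7 mm (medians -0.07 and 0.12). Counts here and below stand beside 11.8% of all probe sets called at 2 mm and 21.5% at 5-7 mm. OsLHY was higher at 2 mm by 3.68 ± 0.11 (limma adjusted p = 2.29e-10), a call kept in 6 of 6 removals of an array. Its call at 5-7 mm (0.42, limma adjusted p = 0.0180) was kept in 4 of 6 removals. The change between lengths was -3.27 (limma adjusted p = 1.47e-08). Whether what moved OsLHY at 2 mm bears on the AP1/FUL-type genes was not tested. Of 22 listed inflorescence and spikelet meristem genes 8 were measured. At 2 mm 1 rose and 1 fell, and at 5-7 mm 4 rose and 3 fell (medians -0.24 and 0.01). The smallest of these falls at 5-7 mm was kept in 2 of 6 removals of an array. LAX1, needed for axillary meristems, rose by 2.39 ± 0.14 at 5-7 mm, and RFL, the rice LEAFY gene, by 1.26 ± 0.12 (limma adjusted p = 9.96e-08 and 5.85e-06). The OsMADS15 rise of 0.38 at the same length was smaller than these.

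**Figure D5:**
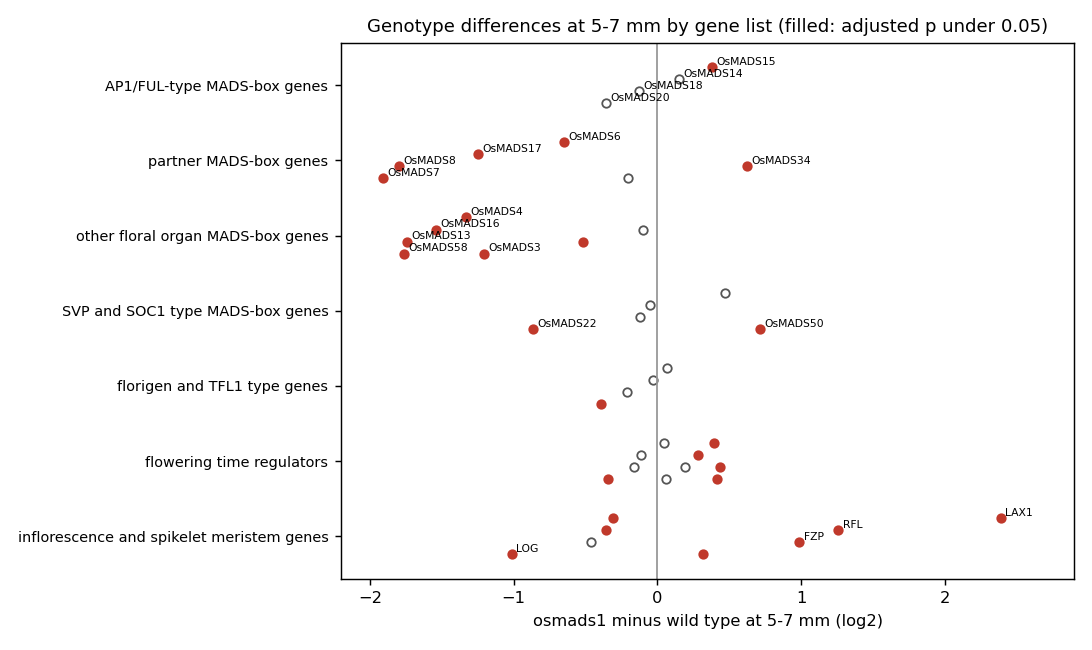
Difference of osmads1 minus wild type at 5-7 mm (log2, horizontal axis), 1 point per gene, for the AP1/FUL-type genes (1 probe set each) and the 6 related lists without OsMADS1, filled where the limma adjusted p was under 0.05. OsMADS15 is the filled AP1/FUL-type point at 0.38, and of the floral organ genes 6 are filled and lie below 0.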

How the data were processed

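Total RNA (500 ng a sample) from 12 panicle samples was labelled with an Affymetrix 3' IVT kit, per the labels. The deposited values are log2 probe set levels. Per the submitters' processing notes the tools were Partek and RMA, whose versions are not given in the sources used here. No detection call comes with RMA values, and its background step understates differences of dim probe sets. Array medians are nearly equal within a length and differ between lengths, and whether the lengths were normalized apart is not given.

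Probe sets were named through the platform annotation and the reference gene table (assembly ASM3414082v1). Of the 57194 tested, 22436 had 1 gene symbol, 95 several and 34663 none, and 187 controls were left out. The synonym OsMADS2 in the OsMADS18 entry was not used. A gene with several probe sets stands in the lists by the brightest. A mean per group was fitted over the 12 arrays with limma 3.58.1 (R 4.3.3) and eBayes, with 8 residual degrees of freedom. In simulated data this fit called a difference of 0.3 in 2% of cases at 2 mm and 12% at 5-7 mm. For the interaction that share was 0%. A difference of 0.5 was called in 50%, 50% and 18%. The simulation changed a far smaller share of probe sets than was called in the real data. Its Benjamini-Hochberg cut-off was therefore stricter, and these shares can understate recovery in the real data. A missing call still does not show that a difference of such size is absent. Differences between members were tested by exact permutation of genotype labels within lengths. Within groups, arrays correlated at 0.995 to 0.998 and none were identical.

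The members and lists were chosen with earlier results of these data known. Genes named by rule were all member probe sets, OsMADS1, up to 4 called genes per list and comparison, and the 3 genes most like each member. Hd3a, the neighbours, single marker genes and the control pairs fall outside the rule and were chosen after values were seen. RCN1, GF14e, OsIDS1 and MFS1 were left out because the name points to another gene. Same-numbered replicates did not deviate together, so no pairing was used. Alternatives were quantile normalization, median centring, a filter for brighter probe sets, fits on the 6 arrays of a length, a trended robust prior, a replicate block, other probe sets of a gene and leaving out each array. Plots were drawn with matplotlib 3.10.9.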

Additional observations from a re-analysis of the deposited data

Results flagged for a closer look

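The genotype difference of OsMADS15 changed between panicle lengths by a test of the difference itself for 3 of its 4 probe sets. The change, 5-7 mm minus 2 mm, was 0.444 for the _a_at probe set, 0.419 for _x_at and 0.492 for the dim _at (limma adjusted p = 0.0132, 0.00789 and 0.0218). For _s_at the change was 0.143 and was not called (limma adjusted p = 0.517). Of all probe sets, 22.3% were called for this change, 11.3% in the positive direction. The 3 called probe sets are annotated to the same gene and are not independent. At 2 mm, 4 of 6 control pairs had lower 3' to 5' differences in every osmads1 array than in every wild-type array. The part of this in the change was not tested. At 2 mm the level of that dim probe set was exceeded by 3 of the 64 reporter controls in osmads1 and by 2 in wild type. Whether its low level limited the 2 mm difference was not tested. In the same arrays the mean of 5 meristem and young panicle markers was lower in osmads1 at 2 mm and higher at 5-7 mm, although LOG fell at 5-7 mm (-1.01) and RFL and LOG were near 0 at 2 mm (-0.03 and -0.06), and their part was not tested.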

How the results depend on the processing

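The OsMADS15 calls at 5-7 mm held for the _a_at (0.36 to 0.40), _x_at and dim _at probe sets under all 6 other settings, and _s_at lost its call in a fit on the 6 arrays of that length (0.33, adjusted p 0.0533). With another probe set of the gene, the OsMADS14 difference at 2 mm was -0.365, its interaction -0.228 or -0.0995, the OsMADS15 difference at 2 mm 0.190 and its interaction 0.143. The OsMADS18 interaction passed with quantile normalization (-0.348), with the filter for brighter probe sets and with the trended prior (-0.290 in both), as did its 2 mm difference with that prior (0.165). Between lengths, quantile normalization gave OsMADS15 (_a_at) 0.0613 in osmads1 and -0.324 in wild type, OsMADS18 -0.555 and -0.207, and OsMADS20 0.107 in osmads1. Median centring gave OsMADS15 -0.251 and -0.704, OsMADS18 -0.847 and -0.565, and OsMADS20 -0.180 and 0.334. For the other OsMADS14 probe sets, quantile normalization and median centring gave _a_at -0.646 and -0.850 in wild type, _x_at -0.369 and -0.610 in osmads1 and -0.281 and -0.519 in wild type, and the dimmer _at -0.643 and -0.858 in wild type and, with centring, -0.117 in osmads1. Quantile normalization left 29471 probe sets called between lengths in osmads1 and 28741 in wild type, against 45509 and 45724 as deposited.

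Leaving out 1 array at a time, OsMADS14 (bright _at) ran from -0.0155 to 0.120 at 2 mm, and its _a_at and _x_at probe sets from -0.0347 to 0.262 and from -0.00618 to 0.144 at 5-7 mm, both negative without wild-type replicate 3. The dim _at probe set of OsMADS15 ran from -0.0894 to 0.0232 at 2 mm, positive without osmads1 replicate 1. The OsMADS18 interaction ran from -0.339 to -0.244, OsMADS20 from -0.522 to -0.207 at 5-7 mm and its interaction from -0.685 to -0.370. Between lengths OsMADS15 (_a_at) ran from 0.0887 to 0.231 in wild type, passing without replicate 3 of the 5-7 mm panicles, and OsMADS18 from -0.0374 to 0.058 in osmads1. The _a_at probe set of OsMADS14 ran from -0.115 to 0.182 and its dimmer _at from -0.267 to 0.207 in wild type. The cause of these changes was not tested.

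With the replicate number as a replicate block no call on the 10 probe sets changed, and 5643 probe sets were called at 2 mm and 10894 at 5-7 mm, against 6737 and 12285. Deviations of same-numbered arrays correlated at 0.014 to 0.084 at 2 mm and at -0.068 to 0.074 at 5-7 mm, and not every array correlated best with its own number.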
